A study of Mus musculus with 8 samples.

Results

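The Sp100 and Sp110 locus of mouse chromosome 1 was described with every non-control probe that carried the name of Sp100, Sp110, Sp140, C130026I21Rik, the transcripts ENSMUST00000162453 or ENSMUST00000115934, or 1 of a pair of long intergenic non-coding RNAs (lincRNAs), or that lay between 85 and 85.5 Mb or between 87.2 and 87.7 Mb of the mm9 build. This gave 86 of the 55681 probes of the array, under 33 of its 34797 gene names. The locus was picked because some of its probes were higher in old mice on these same arrays, so the age differences below are a description of the probes chosen and support nothing by themselves. The arrays measured RNA of common myeloid progenitors (CMPs), the bone marrow cells that give rise to granulocytes, monocytes, megakaryocytes and erythroid cells, sorted by flow cytometry from untreated wildtype C57BL/6J mice. Arrays were labelled young (Y3 to Y6, 2 to 3 months of age) or old (O2 to O5, 22 to 24 months of age), 4 of each, while the design text of the series gives 3 to 4 and 22 to 26 months, and all 8 were used. The labels tie no array to a mouse, and the study's methods name fewer mice of each age than there are arrays, so arrays may share a mouse, n counts arrays, and the errors and p-values may be too small.

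Sp100 is a founding component of the PML nuclear bodies, dot-like structures of the nucleus that gather around the PML protein and take part in transcriptional silencing and in defence against viruses. Sp110 and Sp140 are related nuclear proteins that are found chiefly in blood cells. The family joins an amino-terminal domain for self-association with a SAND domain and, in some members, a PHD finger and a bromodomain, which read DNA and chromatin, and its genes are induced by interferon. In the mouse, Sp110 is known from the control of infection of macrophages, and the stretch of chromosome 1 around these genes holds many related copies, so a probe designed for 1 copy may also bind RNA of another.

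The copies showed in the probes themselves. Of the 86 probes, 25 shared at least 30 bases with another probe of the array at 90% identity or more. The sequences of 60 bases that follow are those of the 8 probes that were higher in old mice and of 1 probe of Sp140, since they show which of these readings could have come from the same RNA. A pair from the forward lincRNA chr1:85117750-85129200 and from ENSMUST00000115934, which the array places on unplaced sequence of chromosome 1, had 57 bases in common (capitals).
A_30_P01027577: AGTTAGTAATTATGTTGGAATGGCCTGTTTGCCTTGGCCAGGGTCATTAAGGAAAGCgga
A_55_P1976743: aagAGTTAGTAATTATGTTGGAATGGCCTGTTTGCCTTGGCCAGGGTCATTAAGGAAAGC
A trio came from the same lincRNA, from the forward lincRNA chr1:87343550-87362900 and from ENSMUST00000115934, and it differed only at the bases in capitals where the probes overlap.
A_30_P01029479: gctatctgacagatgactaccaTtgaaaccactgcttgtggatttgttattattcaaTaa
A_30_P01027120: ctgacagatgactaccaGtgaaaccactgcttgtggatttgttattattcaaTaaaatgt
A_55_P1999162: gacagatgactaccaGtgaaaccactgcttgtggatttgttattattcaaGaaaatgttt
Pairwise alignments within the trio had 98.2% identity over 55 bases, 98.3% over 58 and 96.2% over 53. The third probe of the first lincRNA and a probe named C130026I21Rik shared no such stretch with any other probe.
A_30_P01018749: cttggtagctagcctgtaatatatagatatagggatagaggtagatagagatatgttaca
A_52_P332788: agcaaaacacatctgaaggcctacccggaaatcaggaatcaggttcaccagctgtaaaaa
The probe of ENSMUST00000162453 was, over 36 bases (capitals), the reverse complement of a probe of Sp140, so the pair reads opposite strands of 1 sequence.
A_55_P2100194: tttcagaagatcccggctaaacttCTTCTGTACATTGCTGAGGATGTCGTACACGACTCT
A_55_P2137121: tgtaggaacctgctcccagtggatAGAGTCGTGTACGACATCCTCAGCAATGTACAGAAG
The 8 probes therefore stood for 5 groups of sequence rather than 8 separate readings. The groups need not be separate readings either, since A_30_P01018749, A_30_P01027577 and A_30_P01029479 lie in different groups but in the same lincRNA.

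Copying also reached the start sites. RefSeq windows of 300 bases (250 before the start, assembly GRCm38.p6, whose coordinates differ from those of mm9) were found for 6 of the names, in 8 windows. The window of Sp140 matched that of A530032D15Rik at 99.6% over 271 bases and that of C130026I21Rik at 99.6% over 255 bases, and the window of Gm7609 matched the 2 windows of Sp100 at 98.3% and 98.5%. No window outside the locus matched those of Sp140, A530032D15Rik, C130026I21Rik, Gm7609 or Sp100 over at least 100 bases at 95% or more. The stretches upstream of the start that align are shown because they carry 1 differing base (capital) between Sp140 (chr1:85600453-85600702, plus strand), A530032D15Rik (chr1:85109854-85110074, minus strand) and C130026I21Rik (chr1:85270567-85270771, minus strand).
Sp140: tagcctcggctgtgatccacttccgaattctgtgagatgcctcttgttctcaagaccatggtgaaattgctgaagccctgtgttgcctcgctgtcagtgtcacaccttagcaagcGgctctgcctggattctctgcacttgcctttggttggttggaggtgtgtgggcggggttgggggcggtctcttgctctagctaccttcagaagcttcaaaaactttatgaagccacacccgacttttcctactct
A530032D15Rik: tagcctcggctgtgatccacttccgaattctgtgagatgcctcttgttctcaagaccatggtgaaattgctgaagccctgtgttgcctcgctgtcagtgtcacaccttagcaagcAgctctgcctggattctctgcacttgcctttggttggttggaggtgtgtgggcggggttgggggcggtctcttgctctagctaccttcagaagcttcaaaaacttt
C130026I21Rik: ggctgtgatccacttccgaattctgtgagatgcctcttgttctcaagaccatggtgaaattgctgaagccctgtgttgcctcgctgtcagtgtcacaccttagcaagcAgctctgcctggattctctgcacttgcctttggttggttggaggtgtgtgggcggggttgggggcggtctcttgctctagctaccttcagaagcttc
A pair of GAAA tetramers 2 bases apart, the core of the interferon-stimulated response element, was found on neither strand of the 8 windows and in 3.44% of all 32851 windows. The gamma-activated pattern of TTC and GAA 3 bases apart was likewise absent from the 8 windows and present in 8.3% of all. Nothing is read from either absence, since the windows are few, several are near copies of each other, and most windows lack both patterns.

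Levels are given as log2 signal minus the 75th percentile of the array, and a difference is the mean of old minus the mean of young on that scale. A probe entered the test when 4 or more arrays had it well above background, and it was called at an adjusted p under 0.05 in limma with at least 1.5-fold change. Of the 86 probes 47 were tested, and 8 of them were called higher in old mice, against 0.158% of the 33479 tested probes of the array. None was called lower (0.0329% of all probes), and 12 were higher and 0 lower at an unadjusted p under 0.05, against 3.61% and 2.73% of all tested probes. All old arrays exceeded all young arrays at 11 of the 47 probes (2.86% of all tested probes), and below at 0 (1.57% of all). Because the locus was chosen on this contrast, these shares are given side by side and nothing is read from them. The genes in the name of the locus were not among those called: the 8 probes carried the names of the pair of forward lincRNAs, ENSMUST00000162453, ENSMUST00000115934 and C130026I21Rik. The other 39 tested probes had differences between -0.94 and 0.84, with a median of 0.02, while the median of all tested probes was -0.02.

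**Figure D1:**
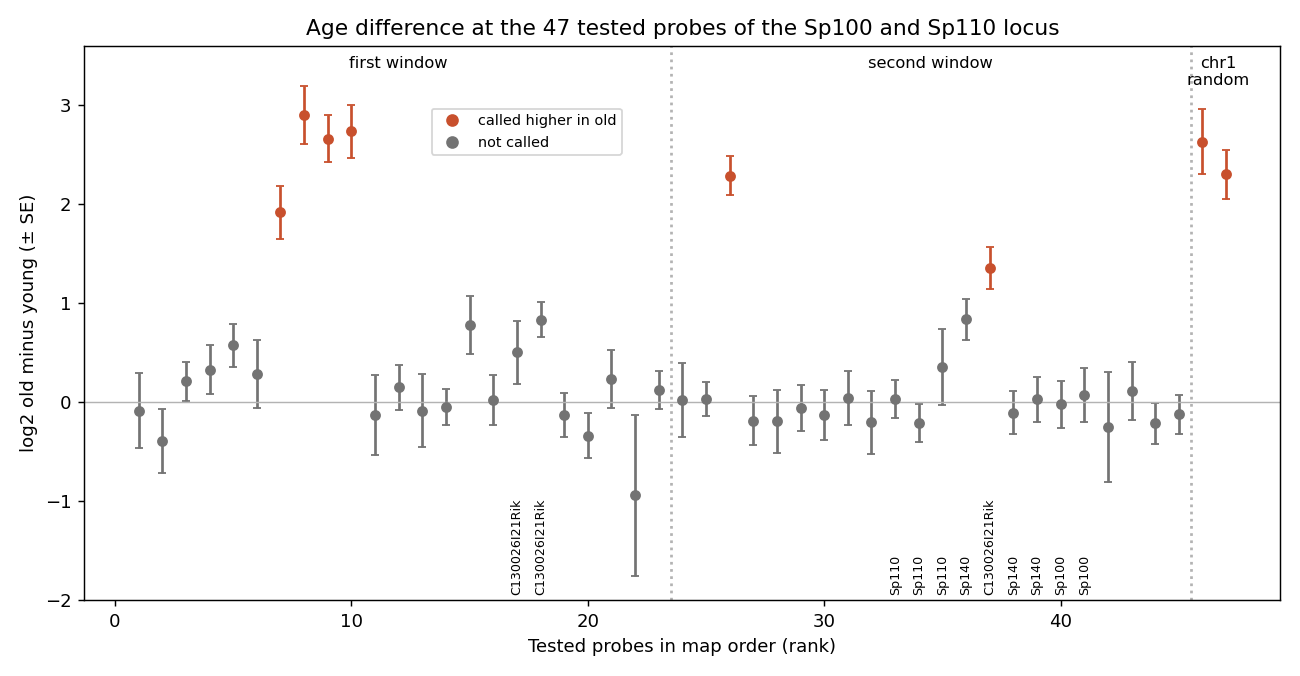
Difference between old and young arrays (log2, y axis, bars ± SE) at the 47 tested probes in map order (x axis, rank), with dotted lines between the 2 windows of chromosome 1 and the unplaced sequence. The 8 called probes lie between 1.36 and 2.90, and the probes named Sp110 and Sp100 lie near 0.

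The clearest block was the forward lincRNA chr1:85117750-85129200, whose first 3 probes span 233 bases. At A_30_P01027577 (chr1:85120101-85120160) the levels were -3.24, -3.31, -4.14 and -3.64 on arrays young 3 to young 6 and -0.59, -1.06, -1.06 and -0.97 on arrays old 2 to old 5. Young arrays averaged -3.58 ± 0.41 and old arrays -0.92 ± 0.22 (SD, n = 4 each), a difference of 2.66 ± 0.24 (SE), or 6.34-fold. At A_30_P01029479, which follows with 0 bases between (chr1:85120161-85120220), the levels were -3.37, -3.36, -4.43 and -3.59 in young and -0.66, -1.27, -0.91 and -0.97 in old mice, a difference of 2.74 ± 0.27 (SE). At each of these probes 3 of the 4 young arrays and all 4 old arrays were well above background, so both sizes rest in part on a young array near background. On both probes the young 5 array was the lowest and the old 2 array the highest, and the ages were parted by more than the spread within either. A_30_P01018749 (chr1:85119988-85120047), 53 bases upstream of the first, was at -4.80, -4.87, -5.81 and -5.71 in young mice, where 2 of 4 arrays were well above background, and at -1.90, -2.64, -2.46 and -2.59 in old mice, where all 4 were. Its difference was 2.90 ± 0.29 (SE), a size that rests in part on the 2 young arrays not well above background.

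The rest of the lincRNA was measured only near background. Its other 2 probes begin 2569 bases further on, and of these A_30_P01028421, well above background on 2 young and 3 old arrays, had a difference of -0.13 ± 0.40 (SE), while A_30_P01023146 was well above background on 3 arrays only and was not tested. The reverse-strand lincRNA annotated over the same interval had 5 probes, none tested, the nearest of them 155 bases from the called block.

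The second forward lincRNA, chr1:87343550-87362900, repeated this layout in the second window. Its probe A_30_P01027120 (chr1:87351659-87351718), from the trio above, was at -2.92, -2.91, -3.32 and -2.95 in young and at -0.36, -0.93, -0.81 and -0.84 in old mice. The difference was 2.29 ± 0.20 (SE), or 4.89-fold. Its other 2 probes, A_30_P01027192 and A_30_P01019782, match the downstream probes of the first lincRNA at 95% over 40 bases and 100% over 41, and were not tested, with age means between -5.91 and -4.74. The 2 tested probes of the reverse lincRNA of that interval had differences of 0.02 and 0.04.

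ENSMUST00000115934, annotated in the array design on unplaced sequence of chromosome 1, held the remaining copies of the block. A_55_P1999162 was at -3.23, -2.90, -4.46 and -3.20 in young, where 3 of the 4 arrays were well above background, and at -0.42, -1.05, -0.95 and -0.86 in old mice (difference 2.63 ± 0.33, SE). A_55_P1976743 was at -3.10, -3.11, -3.98 and -3.16 in young and at -0.65, -1.16, -1.21 and -1.13 in old mice (difference 2.30 ± 0.25, SE). Again young 5 was lowest and old 2 highest, as on the lincRNA probes with which these share sequence. The third probe of this transcript, A_55_P2137067, shared no sequence with the block and was well above background on 1 array.

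Within the ages, probes of the block moved together from array to array. The deviations from the age means, which do not use the age contrast, correlated at r = 0.94 over the 8 arrays for the pair with 57 shared bases and at 0.85 to 0.96 in the trio. For pairs of the block that share no sequence the r ran from 0.73 to 0.96, for example A_30_P01018749 with A_30_P01027577 (r = 0.92) and A_55_P1999162 with A_55_P1976743 (r = 0.96). All these probes share the same 8 arrays and their scaling, and over the 1081 pairs of tested probes of the locus the median was 0.03.

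**Figure D2:**
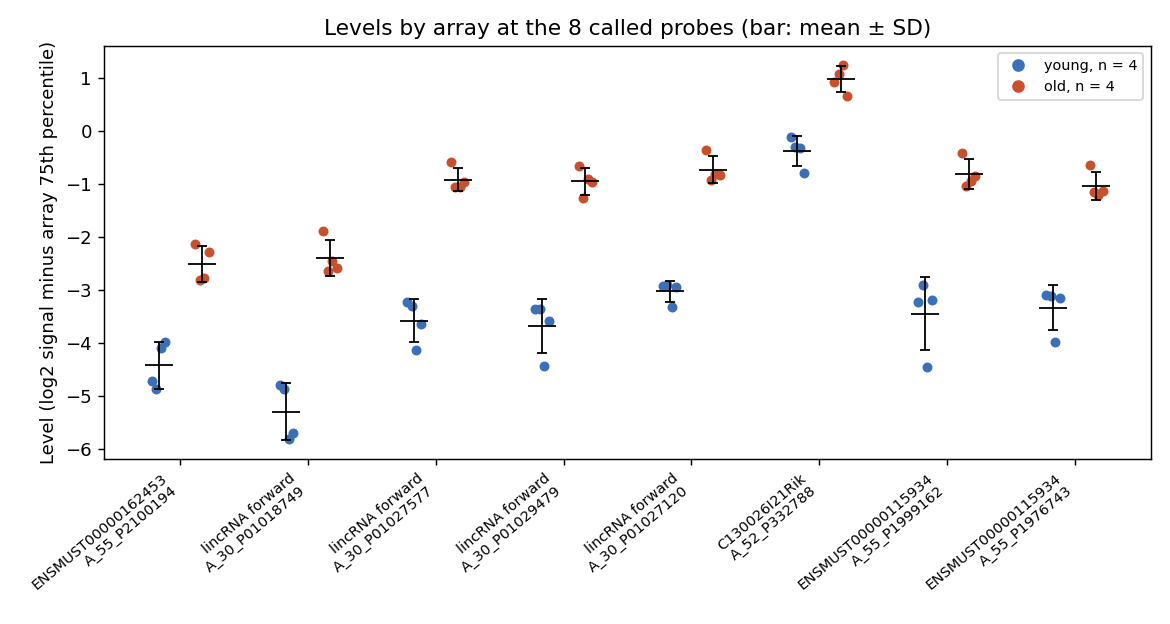
Level of each array (y axis, log2 signal relative to the 75th percentile of that array; points) at the 8 called probes in map order (x axis), blue for young and orange for old, with mean ± SD (n = 4 each). At each of the 8 probes the old arrays lie above the young arrays, with means of -3.58 and -0.92 at A_30_P01027577.

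ENSMUST00000162453, a transcript annotated on the plus strand of the first window, was at -4.72, -4.88, -4.10 and -3.99 in young and at -2.14, -2.81, -2.78 and -2.29 in old mice (A_55_P2100194, chr1:85109086-85109145). The difference was 1.92 ± 0.26 (SE), or 3.78-fold. All 4 young arrays were well above background but dim, and with another background correction (normexp) the difference was 0.95. Here young 5 and young 6 were the higher young arrays, and the deviations within ages correlated with those of the lincRNA block at r between -0.43 and 0.09. ENSMUST00000159087, the neighbouring transcript on the same strand, had a difference of 0.29 ± 0.34 (SE) at its probe.

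The 3 probes that carry the name of C130026I21Rik, a gene related to Sp140 by its start region, gave different readings. A_52_P332788 was at -0.12, -0.30, -0.32 and -0.79 in young and at 0.92, 1.07, 1.25 and 0.66 in old mice, a difference of 1.36 ± 0.21 (SE), or 2.56-fold. This probe lies at chr1:87507422-87507481 in mm9, on the plus strand and close to the plus-strand Sp140 probe A_55_P2137121 (chr1:87507329-87507388). It is far from the other 2 probes of its name, which are on the minus strand. The deposited series table pairs A_52_P332788 with the gene ID that RefSeq lists as the pseudogene Gm35498, so it need not read C130026I21Rik. The other probes, A_55_P1981167 (chr1:85253962-85254021) and A_55_P2184013 (chr1:85242919-85242978), had differences of 0.84 ± 0.18 (SE) and 0.51 ± 0.32 (SE) that were not called. At A_55_P1981167 the young arrays lay between -4.54 and -4.28 and the old between -3.81 and -3.29, so the ages did not overlap, whereas at A_55_P2184013 the young 3 array (-2.58) was above every old array. The separation at A_55_P1981167 lies near background: 3 young arrays were well above it, and with normexp background correction the difference was 0.32.

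Sp110, the interferon-induced family member studied in macrophages, had 3 tested probes and none was called. A_55_P2152566 was at 3.95, 4.46, 4.44 and 4.47 in young and at 4.54, 4.29, 4.17 and 4.46 in old mice, a difference of 0.03 ± 0.19 (SE). A_55_P2037235 was at -0.16, 0.76, 1.65 and 0.94 in young and at 1.5, 1.67, 0.60 and 0.86 in old mice, a difference of 0.36 ± 0.38 (SE). A_55_P2066792 was at 6.84, 6.92, 7.27 and 6.89 in young and at 6.54, 6.64, 7.05 and 6.85 in old mice, a difference of -0.21 ± 0.19 (SE). The last probe holds a run of 37 bases of alternating T and G and met more than 20 other probes at the limits above, so its level need not be that of Sp110. At all 3 probes the ages overlapped.

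Sp140 had 3 tested probes and none was called. A_55_P2137121, the probe whose complement lies in ENSMUST00000162453, was at -0.22, -0.87, -0.21 and -0.52 in young and at 0.41, 0.56, 0.45 and 0.11 in old mice. It also carries a transcript identifier that the probes of A530032D15Rik carry, so it need not read Sp140 alone. Its difference of 0.84 ± 0.21 (SE) was not called, although every old array was above every young array, and only with array weights did it pass. A_55_P2086810 and A_55_P2086811, some 34 kb downstream, overlapped between the ages with differences of -0.10 ± 0.22 (SE) and 0.03 ± 0.22 (SE). The difference between the Sp140 probes was not tested.

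Sp100, the nuclear body protein, did not pass the test at either probe. A_55_P2108763 was at -2.34, -2.30, -1.32 and -1.49 in young and at -1.57, -1.75, -2.10 and -1.74 in old mice, and A_55_P2184493 was at -3.41, -3.28, -3.88 and -3.21 in young and at -3.61, -2.99, -3.39 and -3.87 in old mice. The differences were 0.07 ± 0.27 (SE) and -0.02 ± 0.24 (SE), and the ages overlapped at both.

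**Figure D3:**
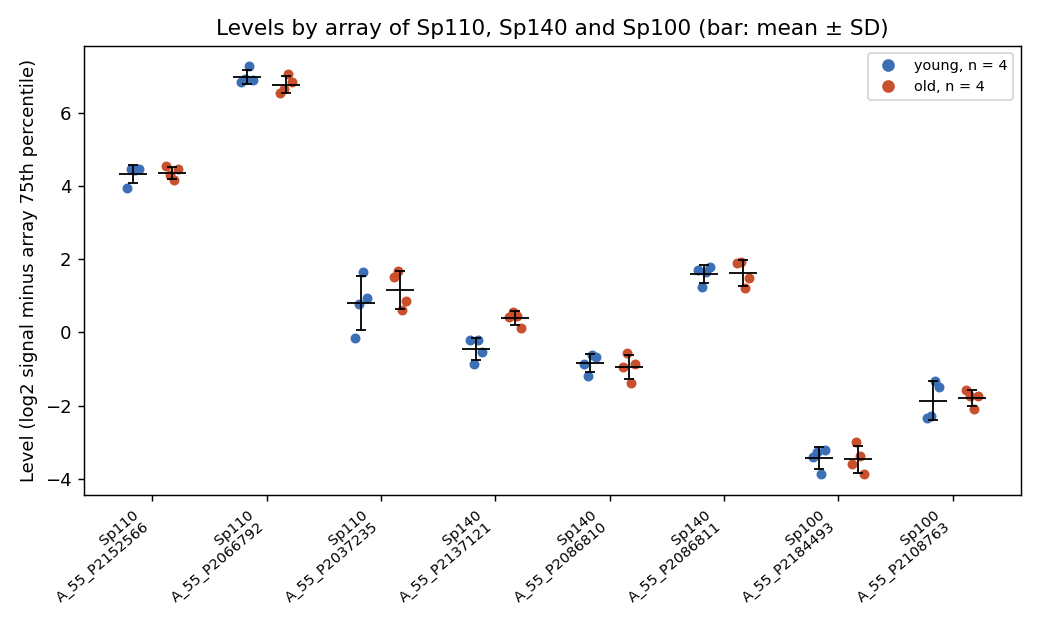
Level of each array (y axis, log2 signal relative to the 75th percentile of that array; points) at the 8 probes of Sp110, Sp140 and Sp100 in map order (x axis), blue for young and orange for old, with mean ± SD (n = 4 each). The ages overlap at 7 of them and are apart at A_55_P2137121 of Sp140, where the means are -0.46 and 0.38.

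Among the neighbours, A530032D15Rik, whose start region matches that of Sp140, was at -1.40, -2.06, -1.68 and -1.54 in young and at -1.35, -1.30, -0.91 and -0.82 in old mice at A_55_P2472735 (difference 0.57 ± 0.21, SE), without overlap and not called. A630001G21Rik, at the far end of the second window, had differences of 0.11 ± 0.30 (SE) and -0.12 ± 0.20 (SE). Its probe A_52_P497625 is the exact reverse complement of a probe of the forward lincRNA chr1:87613025-87631604, whose 2 probes had differences of -0.25 and -0.21. The other lincRNAs were not called at any probe: differences ran from -0.39 to -0.09 at chr1:84947500-85045150 (forward), from 0.21 to 0.33 at chr1:85036677-85038530 (reverse), and from -0.09 to 0.78 at the 3 probes of chr1:85156338-85167730 (reverse). The lincRNAs chr1:85150625-85185800 (0.02 forward, 0.15 reverse), chr1:85300475-85331475 (reverse, -0.34 and -0.13), chr1:85323303-85337483 (forward, 0.12), chr1:87348082-87409907 (forward, -0.06) and chr1:87412059-87419385 (forward, -0.13) were not called either. At chr1:85304494-85305390 (reverse) 1 of 2 probes had the lowest difference of the locus, -0.94 ± 0.81 (SE), with the young 4 array at 0.14 against -4.17 to -2.76 on the other young arrays. The lincRNAs chr1:87374975-87412500 (reverse) and chr1:87419050-87452625 (forward) formed another copied pair, with 3 probes of each matching at 96.7% to 100% over 58 to 60 bases, and had differences of -0.19 and -0.19 and of 0.04 and -0.20.

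The 39 probes that were not tested were 33 of lincRNAs and 6 others, and 20 of them stood above background on no array. Gm7609, C79246 and the 2 probes without a gene name (A_55_P2154029 and A_55_P1989229) had no tested probe, nor had the lincRNAs chr1:85117750-85129200 (reverse), chr1:85300475-85331475 (forward), chr1:85310067-85323941 (reverse) and chr1:87374975-87412500 (forward). Just outside the windows, ENSMUST00000098874 on the left had a difference of -0.41 ± 0.44 (SE) and Cab39 on the right one of 0.03 ± 0.20 (SE), and no chromosome 1 probe lay between the 2 windows.

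Probes outside the locus that carry a transcript identifier of 1 of its probes were 5. ENSMUST00000096862, which the design places on unplaced sequence of chromosome 1 and which shares identifiers with ENSMUST00000162453 (called) and with ENSMUST00000159087 (0.29, not called), was at -2.14, -2.23, -1.86 and -1.94 in young and at 0.34, -0.37, -0.03 and 0.12 in old mice, a difference of 2.06 ± 0.20 (SE; adjusted p = 0.00358 in limma). ENSMUST00000111423, placed on unplaced sequence of chromosome 8 and sharing identifiers with ENSMUST00000115934, was at -3.27, -3.07, -4.69 and -4.40 in young and at -1.63, -2.06, -1.71 and -1.78 in old mice. Its difference of 2.06 ± 0.36 (SE) missed the threshold (adjusted p = 0.0733 in limma), and 3 of its 4 young arrays were well above background. Neither probe met a probe of the locus at the sequence limits above. Csprs, which carries an accession of Gm7609, had a difference of -0.11 ± 0.44 (SE), and the probes that carry identifiers of Sp100 (ENSMUST00000163565) and Sp110 (ENSMUST00000111366) were well above background on 2 arrays and on 1 and were not tested.

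**Figure D4:**
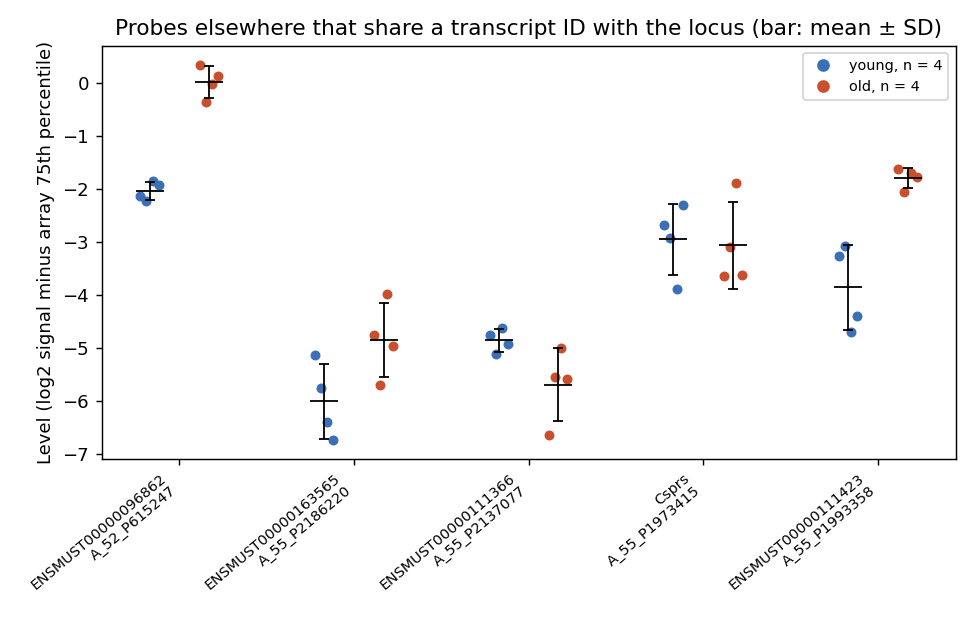
Level of each array (y axis, log2 signal relative to the 75th percentile of that array; points) at the 5 probes elsewhere that share a transcript identifier with the locus (x axis), blue for young and orange for old, with mean ± SD (n = 4 each). The old arrays lie above the young arrays at ENSMUST00000096862 (means -2.04 and 0.01) and ENSMUST00000111423 (means -3.86 and -1.79) and overlap them at the other 3.

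The arrays lay on 2 slides with 2 arrays of either age on each, so the age differences could be taken within a slide. At A_30_P01027577 they were 2.87 on slide 1 and 2.45 on slide 2, at A_30_P01027120 2.25 and 2.33, at ENSMUST00000162453 1.49 and 2.34 and at A_52_P332788 1.42 and 1.29. With slide as a term in limma 7 of the 8 probes were called, all but A_52_P332788. The slide itself, which was not used to choose the locus, was called at 0 of the 47 probes (0% of all tested probes), with 3 at an unadjusted p under 0.05 against 5.60% of all probes. The lowest p among these was that of A_30_P01018749, higher on slide 2 by 0.68 ± 0.20 (SE; adjusted p = 0.802 in limma). The age by slide difference was called at 0 probes (0% of all), with 2 of the 47 at an unadjusted p under 0.05 against 3.68% of all.

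**Figure D5:**
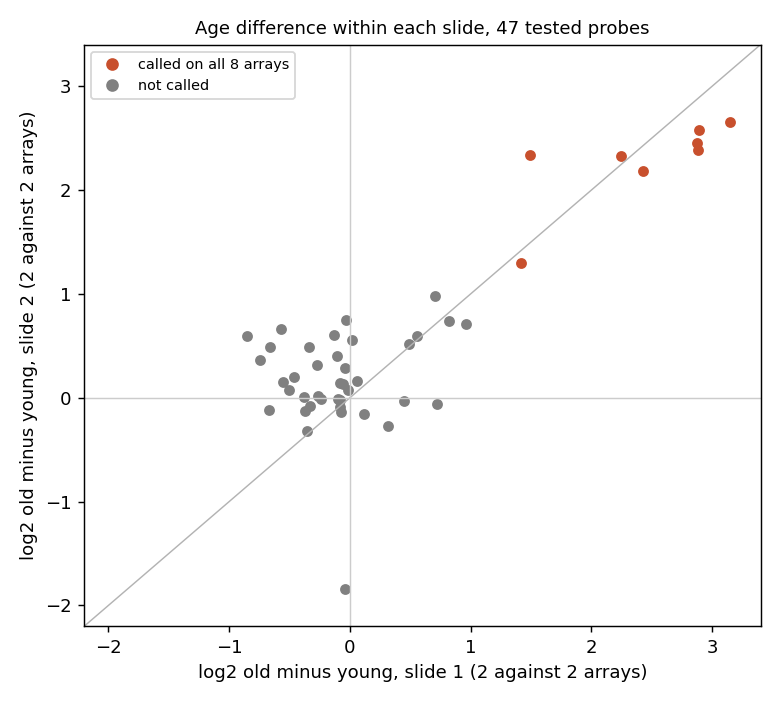
Age difference on slide 1 (x axis) and on slide 2 (y axis), both log2 old minus young from 2 against 2 arrays, at the 47 tested probes, with the line of equality. The 8 called probes (orange) are above 1 on both slides, for example 2.87 and 2.45 at A_30_P01027577, and the others (grey) scatter around 0.

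The calls were not equally firm, and the methods' test, made probe by probe without sharing the spread across probes, called none of the 8 after adjustment. A_30_P01018749, A_30_P01027577, A_30_P01029479, A_30_P01027120 and A_55_P1976743 stayed called when any 1 array was left out, whereas A_52_P332788 lost its call without any 1 of the 8 arrays, and A_55_P2100194 without each of them but young 6. A_55_P1999162 lost its call without old 2, old 3 or old 5, and leaving out any of these left 5 called probes. Normexp background correction kept all 8 called but drew their differences down to between 0.95 and 1.70 at the 7 other than A_52_P332788, 2.90 becoming 1.10 at A_30_P01018749.

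In the deposited series table, which joins probes by gene ID, the 86 probes were spread over 77 lines. The line of Sp110 held its 3 probes together with the called A_55_P1976743 of ENSMUST00000115934, and its difference was -0.13 ± 0.18 (SE), against 2.30 at that probe alone. The line of Sp140 joined its 3 probes at 0.22 ± 0.20 (SE), against 0.84 at A_55_P2137121 alone.

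Genes whose levels over the 8 arrays were most like those of the brightest tested probe of each family member were named by Pearson's r among all tested probes outside the locus, with no test. For Sp100 they were Cno (r = 0.99), a forward lincRNA of chromosome 3 (probe A_30_P01022601, 0.99), Dnalc4 (0.98), Usp5 (0.98) and B3gat3 (0.98). For Sp110, whose brightest probe is the one with the TG run, they were Sema4c (0.99), Gm6994 (0.98), Gxylt2 (0.98), the unnamed probe A_55_P2066508 (0.98) and Cyp2c55 (0.98), and for Sp140 LOC552912 (0.97), Sirt2 (0.96), Ppp1r37 (0.95), Ssh3 (0.95) and Fam193a (0.95). These likenesses were carried by the spread within ages, the r of the deviations being 0.948 to 0.996, and all points share the scaling of the arrays. They are the highest of a ranking of all those probes on only 8 arrays, where r values this high can arise by chance, so no co-expression is read from them.

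Interferon induces this family, and the interferon genes were therefore set beside it. Of 40 tested interferon-stimulated genes 0 were called by limma, 24 differences were above 0, and the median was 0.09 against -0.01 over all 23161 tested genes, with 6 higher and 2 lower at an unadjusted p under 0.05, against 3.95% and 2.66% of all tested genes. The largest differences were those of Mx1 (-1.96 ± 0.52, SE) and the chemokine Cxcl10 (-0.97 ± 0.52, SE), and of Isg20 (0.68 ± 0.25, SE) and Parp12 (0.65 ± 0.31, SE). Mx1 was dim, at -2.93 in young and -4.89 in old mice. The lowest level well above background was between -5.90 and -4.80 on the old arrays, so the size for Mx1 is uncertain. Among 13 tested genes of interferon signalling none was called (median -0.03, 1 higher and 1 lower at an unadjusted p under 0.05), with Socs3 at 0.69 ± 0.18 (SE), the receptor chain Ifngr2 at -0.61 ± 0.17 (SE), Socs1 at 0.46 ± 0.22 (SE) and Ifnar1 at -0.40 ± 0.21 (SE). The 9 interferon regulatory factors were not called either (median 0.01, 1 lower at an unadjusted p under 0.05), with Irf8 at -0.71 ± 0.22 (SE), Irf5 at -0.50 ± 0.29 (SE) and Irf4 at -0.42 ± 0.59 (SE). Irf4 was also dim, at -4.35 in young and -4.78 in old mice.

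Partners of Sp100 in the nuclear body did not pass the test. Of 19 genes tested 0 were called by limma and 0 had an unadjusted p under 0.05 (median 0.02), among them Atrx (-0.49 ± 0.40, SE) and Hira (0.25 ± 0.18, SE), which deposit histone H3.3 with partners, and Sumo3 (0.23 ± 0.34, SE), of the SUMO pathway. Pml itself was at 1.87 in young and 2.02 in old mice. Of 14 tested genes with SAND domains or with a PHD finger and bromodomain 0 were called and 0 had an unadjusted p under 0.05 (median -0.09).

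Of the genes of the CMP gate, Kit (2.70 in young and 3.01 in old mice) and Cd34 (6.75 and 6.54), which CMPs carry, were measured, but so was Ly6a (-0.12 and -0.85), which encodes the Sca-1 protein that the gate leaves out. None of the 5 was called. At an unadjusted p under 0.05 by limma 0 were higher and 1 was lower, against 3.95% and 2.66% of all tested genes. The lower gene was Ly6a (difference -0.73 ± 0.23, SE). Of 14 lymphoid markers 4 were above background on no array and 6 were tested, among them Cd79b (3.18 and 3.06) and Cd3e (2.23 and 2.01), with 0 called or at an unadjusted p under 0.05 by limma. Several marker lists moved with age beside the locus. All 14 megakaryocyte markers had a difference above 0 (median 1.14), and their summed level was 6.63 to 7.62 on young and 8.16 to 8.58 on old arrays. Gp9 was called, where 0.158% of all tested probes were called higher. By limma 14 megakaryocyte markers were higher and 0 lower at an unadjusted p under 0.05, against 3.95% and 2.66% of all tested genes. Haematopoietic stem cell markers summed to 4.90 to 5.35 on young and 5.56 to 5.89 on old arrays (9 tested, Hoxb5 called), with 6 differences above 0 and those of Procr (-0.30), Mllt3 (-0.14) and Fgd5 (-0.05) below. Signals were added before the log2, so this sum mostly follows the bright Gfi1b (4.34 in young and 4.90 in old mice) and Meis1 (3.72 and 4.37). Hoxb5 was dim (-4.44 and -2.60), and with only probes well above background on all 8 arrays no stem cell marker was called. In the main fit 3 stem cell markers were higher and 0 lower at an unadjusted p under 0.05 by limma. The lists of neutrophil and granulocyte markers (9.57 to 10.03 on young and 9.09 to 9.38 on old arrays) and of monocyte, macrophage and dendritic markers (8.63 to 9.02 and 8.28 to 8.57) were lower on the old arrays with 0 called by limma, and 4 and 5 genes respectively lower at an unadjusted p under 0.05. The summed levels of erythroid (4.46 to 5.95 and 4.51 to 5.50), endothelial (5.60 to 6.05 and 5.54 to 6.12), lymphoid (3.91 to 4.24 and 3.75 to 4.07) and gate genes (6.73 to 7.09 and 6.53 to 6.88) overlapped between the ages. Of 6 tested endothelial genes 0 were called by limma. Tie1 (1.01 ± 0.25, SE) and Emcn (0.96 ± 0.23, SE) were higher at an unadjusted p under 0.05 and none was lower, against 3.95% and 2.66% of all tested genes. The part of cell composition in the higher probes of the locus was not tested, and fewer cells of a type and less RNA per cell cannot be told apart in such samples.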

How the data were processed

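The 8 arrays (4 young, 4 old, grouped by sample labels) were read by the authors with Agilent Feature Extraction 10.7.3.1, and the deposited files give each spot's background-corrected intensity. The 75th percentile intensity was 290 to 565 per array, and 55.6% to 63.2% of probes were well above background. From these, log2 values minus the array's 75th percentile over 59305 non-control spots were computed without 141 to 230 outlier spots per array, and spots of a probe were averaged. No spot was saturated. The authors' series table, deposited as centred log2 values, served as an alternative.

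limma 3.58.1 (R 4.3.3) compared old with young over the 33479 probes well above background on at least 4 arrays, with Benjamini-Hochberg adjustment over all of them. The step was tested on simulated data. Lists (interferon, nuclear body, SAND and PHD-bromodomain, cell markers) used each gene's brightest tested probe. Members and lists were chosen with earlier results of these data known. The gene or lincRNA of every tested probe of the locus is named, with the 5 most alike genes for Sp100, Sp110 and Sp140, called list genes and the 4 largest differences in each interferon or nuclear body list, of which 2 are not reported here. Probe sequences were compared with blastn 2.17.0, and promoter windows and gene IDs came from RefSeq. Slides were told apart by the scanner files. Precision is limited by the number of arrays, and p-values measure only the spread between arrays labelled as separate samples, which may be technical. Alternatives were background correction, normalization, the filter, array weights, slide or replicate blocks, Welch's t-test and leaving out each array.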

Additional observations from a re-analysis of the deposited data

Results flagged for a closer look

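Each age has 4 arrays, and 172 such groups were examined over the 86 probes. In 11 of them 1 array stood apart from its 3 neighbours by more of the group's range than Dixon's 95% limit allows, where chance gives about 1 in 20. Among the called probes, A_30_P01027120 was flagged for young 5 at -3.32 (the next array at -2.95), and A_55_P1976743 for young 5 at -3.98 (next -3.16) and for old 2 at -0.65 (next -1.13). The remaining tested probes were Sp110 A_55_P2152566, with young 3 at 3.95 (next 4.44), A_30_P01032258 with young 5 at -3.41 (next -3.73), A_30_P01030539 with old 4 at -2.38 (next -3.00) and A_30_P01033235 with old 5 at -3.27 (next -2.89). At 4 untested lincRNA probes 1 array was bright and the others dim: A_30_P01027802 with young 3 at -3.04 (next -6.45), A_30_P01022130 with young 3 at -2.0 (next -6.51), A_30_P01023639 with old 5 at -4.04 (next -6.85) and A_30_P01023536 with young 5 at -1.83 (next -6.94). The largest of these gaps was 5.11 on the log2 scale. Young 5 was the array flagged at 4 probes, young 3 at 3 and old 5 at 2.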

How the results depend on the processing

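Over 19 settings the count of called probes higher in old was 8 with normexp, quantile, median and trend settings, 7 with the series table and with slide as a block, and 10 with array weights. It was 5 with no filter on dim probes and 4 with probes well above background on all 8 arrays, a filter that 4 of the 8 called probes did not pass; for the former the cause was not tested. Welch's t-test with adjustment called 0 (11 at an unadjusted p under 0.05), and leaving out 1 array gave 5 to 7. Megakaryocyte markers had 0 to 5 calls and stem cell markers 0 or 1. The count of called probes lower in old was 0 throughout. The replicate block over numbers 3, 4 and 5, which both ages share (6 arrays), called 0 of the locus, with 11 higher and 1 lower at an unadjusted p under 0.05. The labels do not say whether these numbers pair the arrays. Same-numbered deviations correlated at -0.09, -0.14 and 0.15, and so few values cannot settle it. A_55_P1976743 changed sign to -0.13 in the series table, whose line joins it with 3 probes of Sp110. All other called probes kept their direction, and the interferon, nuclear body and SAND lists had 0 calls in every setting. Sp110, Sp100 and the 2 downstream Sp140 probes were called in no setting. The 4 arrays of each age limit the precision, most of all at dim probes.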
